A study of Rattus norvegicus with 30 samples.

Results

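DNAm was examined in regions on unplaced scaffolds, the pieces of the rat assembly (rn6) that carry sequence without a position on a chromosome. Peaks of all 30 libraries on such scaffolds were merged wherever they overlapped by at least 1 bp, leaving out the mitochondrial genome and scaffolds named for chromosome X or Y. This gave 680 regions on 281 scaffolds, and the 448 regions on 218 scaffolds with a called peak in at least 3 libraries are the scaffold regions described here. They are 448 of the 359716 merged regions of the whole series that were called in at least 3 libraries. Of the 680, another 75 were called in 2 libraries and 157 in 1 library.

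DNAm was profiled by meDIP-seq in the prefrontal cortex (PFC) of Sprague-Dawley offspring on postnatal day 22. The question behind the groups was whether ethanol before birth, or the food restriction that goes with it, alters DNAm in the developing PFC of both sexes. Dams in the control (CON) group ate a pelleted control diet ad libitum. Pair-fed (PF) dams were given a liquid diet without ethanol, with daily amounts set by the intake of a matched dam on the ethanol diet, so they differ from CON dams in how much they ate as well as in the form of the diet. In the prenatal alcohol exposure (PAE) group, dams ate a liquid diet with 36% of its calories from ethanol, at 6.37% v/v. All diets ran over gestation days 1 to 21. The labels name separate animals, with 5 labelled female and 5 labelled male in each group, from 15 dams that gave 1 animal of each labelled sex. The tissue is bulk PFC with its mixture of cell types, for which peaks in DNA give no marker genes, so the tissue label could not be checked.

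Cytosine methylation is dense over repeated and duplicated sequence in most somatic tissues, where it is known for keeping mobile elements silent. Such sequence is also what assemblies place worst, so unplaced scaffolds are rich in it. meDIP-seq pulls down fragments with an antibody against 5-methylcytosine, and a region rich in methylated CpG sites then appears as a peak of fragments.

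The value of a library in a region was the highest pileup of its peak there per 1000000 filtered fragments, called the normalized height. Filtered fragments, as stated with the peaks, ranged from 11548314 to 16555049 per library. In a height, DNAm per cell, the share of cells methylated and the number of copies of a sequence in the genome cannot be told apart. Scaffolds that stand for several copies, or for copies missing from the assembly, collect fragments from all of them.

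Peaks on the sex chromosomes did not follow the sex labels. In 7 libraries 2.65 to 3.14% of all peaks were on chromosome X, while chromosome Y carried 4 to 11 and the scaffolds named for it 70 to 102. These 7 were PAE replicate 1 and PF replicate 5, labelled female, and CON replicates 8 and 10 and PF replicates 6, 7 and 8, labelled male. The other 23 had 0.774 to 1.15% of their peaks on chromosome X, 38 to 87 peaks on chromosome Y and 474 to 1514 on its scaffolds. Of these 23, 13 were labelled female and 10 labelled male, so 18 libraries went against their label (7 CON, 7 PF and 4 PAE). Sex is therefore given as labelled. The counts of regions differing between groups are also given for the 12 other libraries (3 CON, 3 PF and 6 PAE). So are the differences between scaffolds and autosomes, some of the library measures and the highest scaffold region. The other single regions and the fits by labelled sex are not given for these 12. Of these 12, 10 are labelled male and 2 labelled female (PAE replicate 1 and PF replicate 5), with none of the latter in CON, so sex is unbalanced over their groups and was not fitted among them. Whether the group and dam labels, on which every comparison between groups below rests, are affected as well cannot be told from these peaks.

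Of the 448 scaffold regions, 368 lay on 153 scaffolds of no chromosome and 80 on 65 scaffolds assigned to a chromosome without a position. Chromosome 15 had the most of the latter, 10 regions on 6 scaffolds, followed by chromosomes 4, 5 and 17 with 7 regions each and chromosomes 1 and 2 with 6 each. Most scaffolds were small contributors, as 137 of the 218 carried 1 region and 16 carried 5 or more, with 147 regions between them. Neighbouring regions on a scaffold were 171 to 144740 bp apart (230 gaps, median 5467 bp), against a median of 4281 bp between neighbouring autosomal regions. Lengths ran from 264 to 3267 bp with a median of 554 bp, close to the autosomal median of 544 bp.

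Scaffold regions were called in more libraries than autosomal ones. A peak was present in a median of 12 libraries, against 8 for the 352026 autosomal regions called in at least 3. It was present in 15 or more libraries for 194 regions (43.3%, against 28.6% of autosomal regions) and in 3 to 5 libraries for 118 (26.3%, against 34.0%). All 30 libraries had a peak in 45 regions on 34 scaffolds (10.0%), compared with 11914 autosomal regions (3.38%). These 45 are called constant regions below. They were 42 of the 368 regions on scaffolds of no chromosome (11.4%) and 3 of the 80 on assigned scaffolds (3.75%, near the autosomal share). Presence in 15 or more libraries was alike on both (43.2 and 43.8%). The highest normalized height of a region had a median of 1.14 on the former and 0.981 on the latter, against 1.10 on autosomes. These values describe the sets and carry no test, because regions are not replicates.

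The threshold of 3 libraries fell among low peaks. In the 52 regions called in exactly 3 libraries, the highest normalized height ran from 0.369 to 1.21 with a median of 0.795. In the 75 called in 2 libraries, which were left out, it ran from 0.360 to 1.05 with a median of 0.659. Heights on either side of the threshold overlapped over most of their range, and median lengths were 376 and 341 bp.

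Each library was then set against itself, with scaffold regions on one side and autosomal regions on the other. Over the regions with a peak in a library, the median normalized height on scaffolds ranged from 0.756 to 1.09, and on autosomes from 0.752 to 1.03. The ranges overlap across libraries, but within a library the scaffold value was higher in 17, equal in 13 and lower in 0. The mean difference was 0.0448 ± 0.0435 (SD, n = 30; 2-sided sign-flip permutation test, p = 5e-05, adjusted p = 5e-05 over 4 measures).

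Peaks on scaffolds were also longer, with a median of 373.9 ± 13.5 bp against 343.7 ± 13.5 bp on autosomes (mean and SD of library medians, n = 30). The difference of 30.2 ± 11.4 bp was positive in 30 of 30 libraries (sign-flip permutation test, p = 1e-05, the smallest that 100000 resamples give; adjusted p = 1.33e-05). It was not seen among regions called in all 30 libraries, where scaffold peaks were 5.22 bp longer, higher in 20 libraries and lower in 10 (permutation test, p = 0.266).

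Library medians of fold enrichment, the pileup over the local background as the peak caller estimates it, did not overlap between scaffolds and autosomes. These medians lay between 5.12 and 6.56 on scaffolds and between 4.23 and 4.82 on autosomes. Every library was thus higher on scaffolds, by 1.27 ± 0.268 (SD, n = 30; sign-flip permutation test, p = 1e-05, the smallest possible; adjusted p = 1.33e-05).

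The local background behind these ratios, recovered from pileup and fold enrichment and given per 1000000 filtered fragments, was lower on scaffolds. Library medians ran from 0.0792 to 0.0880 there and from 0.112 to 0.139 on autosomes. The difference was −0.0406 ± 0.00521 (SD, n = 30), with scaffolds lower in 30 of 30 libraries (sign-flip permutation test, p = 1e-05, the smallest possible; adjusted p = 1.33e-05). The caller takes the larger of a genome-wide background and one from a window of 10000 bp, so its estimate cannot fall below the genome-wide level of 0.0790 to 0.0876. The background of 65.6% of the 6602 peaks in scaffold regions was within 1% of that level (58.3 to 72.2% per library), against 22.0% of 3981091 autosomal peaks (15.8 to 25.6% per library). How much of the higher fold enrichment on scaffolds follows from this lower background was not tested.

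The constant regions gave the same order for height, enrichment and background. Their median height per library was 1.69 ± 0.229 on scaffolds and 1.35 ± 0.167 on autosomes, and scaffolds were higher by 0.341 ± 0.136 in 30 of 30 libraries (SD, n = 30; sign-flip permutation test, p = 1e-05, the smallest possible). Fold enrichment was 9.02 ± 0.781 against 6.14 ± 0.326, and local background 0.0934 ± 0.0108 against 0.156 ± 0.0119 (SD, n = 30 each). A mean height over 3 was reached by 11 of the 45 constant scaffold regions (24.4%) and by 1031 of the 11914 autosomal ones (8.65%). Variation between libraries was similar on both, with a median SD of log2 height of 0.39 on scaffolds (0.22 to 1.04) and 0.36 on autosomes (0.14 to 1.97). In the 12 libraries that did not go against their label, a choice made after seeing the data, the differences over all regions with a peak were 0.0379 for height (permutation test, p = 0.0314), 30.1 bp, 1.19 and −0.0410, the last 3 shared by 12 of 12 libraries.

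The highest scaffold region was chrUn_KL568391v1:10411-10938 (528 bp), with a mean normalized height of 38.9 over 30 libraries. In CON libraries its height had a minimum of 32.6, a median of 38.8 and a maximum of 60.2. The corresponding values were 30.0, 33.8 and 56.8 in PF libraries. In PAE libraries they were 29.8, 32.8 and 56.5. The 3 groups overlapped over most of their range, and in each of them the top libraries were those with over 2% of their peaks on chromosome X. The limma fit gave log2 differences of −0.16 for PAE versus CON (standard error 0.12, adjusted p = 0.743), 0.00 for PAE versus PF (adjusted p = 1) and −0.17 for PF versus CON (adjusted p = 0.811). The value for PAE versus PF, next to 0, was −0.15 without the lane term. In the 12 libraries that did not go against their label, PAE versus CON was −0.02, PAE versus PF was −0.15 and PF versus CON turned to 0.13. With each library left out in turn, PAE versus CON ran from −0.207 without PAE replicate 1 to −0.0957 without PAE replicate 9, and PF versus CON from −0.252 without PF replicate 8 to −0.0922 without PF replicate 10. Of the 7 libraries with over 2% of their peaks on chromosome X, 4 are PF, 2 CON and 1 PAE.

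Split by chromosome X share in place of group, the heights of chrUn_KL568391v1:10411-10938 did not overlap. They ran from 50.1 to 60.2 (median 56.5) in the 7 libraries with the larger share and from 29.8 to 40.8 (median 32.9) in the other 23. Another constant region, chrUn_KL568260v1:2866-3469 (604 bp), chosen after its values were seen, separated them as well, with 4.30 to 6.05 (median 5.31) in the 7 and 1.72 to 3.69 (median 2.63) in the 23. These were 2 of 45 constant scaffold regions, beside 0.0836% of the 11959 constant regions on scaffolds and autosomes together (8 of 11914 on autosomes). Both lie on scaffolds of no chromosome, and both were higher in the libraries with more peaks on chromosome X.

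On chromosome X itself, 26 of 202 constant regions (12.9%) did not overlap between the same libraries, and the ratio of the medians of the 7 to the 23 had a median of 1.54 (0.727 to 2.71). Over the 45 constant scaffold regions the ratio had a median of 0.917 (0.410 to 2.02), and over the autosomal ones 0.960 (0.258 to 3.27). The scaffold regions as a whole thus had a ratio near that of the autosomes. The highest of them, 2.02, belongs to chrUn_KL568260v1:2866-3469 and lies within the range of chromosome X regions and within that of autosomal regions. From which chromosome either scaffold comes was not tested, since the sequence of the assembly was not used here.

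The 5 regions whose peaks were most unevenly called between the same libraries are given as a description. At chr15_KL568068v1_random:12082-12720 (639 bp) a peak was called in 0 of the 7 and 15 of the 23, with heights of 0.402 to 0.803. At chr5_KL567957v1_random:2250-3049 (800 bp) it was called in 1 of the 7, PAE replicate 1, and 17 of the 23 (0.398 to 0.944). Both of these are on scaffolds assigned to an autosome and were called more often in the libraries with more peaks on chromosome Y. The reverse held at chrUn_KL568510v1:29514-29912 (399 bp), called in 6 of the 7 and 6 of the 23 at heights of 0.443 to 0.947. It held at chrUn_KL568337v1:19704-20279 (576 bp), called in 4 of the 7 and in CON replicate 3 alone among the 23 (0.425 to 0.754). It also held at chrUn_KL568457v1:36-531 (496 bp), called in all 7 at 0.905 to 1.82 and in 11 of the 23 at 0.502 to 1.00.

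The other regions of highest mean height showed wide and overlapping groups. At chrUn_KL568337v1:27623-28403 (781 bp, mean 6.71) the lowest, median and highest heights were 4.66, 6.29 and 8.84 in CON, 5.45, 6.97 and 8.35 in PF and 4.94, 6.33 and 10.0 in PAE libraries. PAE replicate 2 stood alone at the top, and the other 29 libraries were mixed by group.

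The remaining 3 of the 5 lie on a single scaffold, chrUn_KL568458v1. At chrUn_KL568458v1:14204-14805 (602 bp) the lowest, median and highest heights were 1.07, 6.58 and 11.9 in CON, 4.44, 6.02 and 9.23 in PF and 2.22, 6.07 and 9.53 in PAE libraries. CON libraries spanned the whole range, from CON replicate 5 at the bottom to CON replicate 2 at the top. At chrUn_KL568458v1:26736-27157 (422 bp) the values were 2.51, 5.46 and 9.28 in 9 CON, 4.03, 5.63 and 7.75 in PF and 3.09, 4.66 and 8.88 in PAE libraries, with no peak called in CON replicate 1. At chrUn_KL568458v1:22944-23362 (419 bp) they were 1.79, 4.57 and 9.21 in CON, 3.95, 5.47 and 7.85 in PF and 3.09, 5.46 and 7.02 in 9 PAE libraries, with no peak called in PAE replicate 7. In both, CON replicate 5 was again the lowest library with a peak and CON replicate 2 the highest, and the groups overlapped.

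This scaffold carried 17 of the 448 regions over 52573 bp. Of its 7 regions called in 25 or more libraries, CON replicate 5 was among the 2 lowest libraries in 7, and CON replicate 1 in 4. CON replicate 2 was among the 2 highest in 6, and PAE replicate 9 in 3. The number of its regions called ran from 6 in CON replicate 1 to 16 in PAE replicate 5 (median 11.5), with means of 10.5 in CON, 11.6 in PF and 11.6 in PAE libraries. Regions of a single scaffold share their source, so this is a description of libraries and not of independent regions.

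Of the 5 regions with the largest SD of log2 height over the 30 libraries, 3 are close together on the same scaffold. The widest, chrUn_KL568458v1:25993-26303 (311 bp, SD 1.33), had a peak in 15 libraries (4 CON, 5 PF and 6 PAE) with heights of 2.01 to 3.30. At chrUn_KL568458v1:25005-25652 (648 bp, SD 1.23) 9 libraries had a peak of 2.01 to 3.53 (3 CON, 4 PF and 2 PAE). At chrUn_KL568458v1:23984-24401 (418 bp, SD 1.08) 8 libraries had a peak of 1.49 to 3.60 (4 CON, 1 PF and 3 PAE). In all 3, a library had either a peak at these heights or no called peak, and libraries of every group were found on both sides. The height that a peak needed to be called depends on the local background and was not examined there. In a library without a called peak the height was set to a floor of 0.438, so the true spread there is unknown.

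The other 2 of the 5 lie elsewhere. At chrUn_KL568366v1:48278-48959 (682 bp, SD 1.08) the lowest, median and highest heights were 0.358, 1.49 and 4.25 in CON, 0.659, 1.03 and 4.00 in 9 PF and 0.481, 2.44 and 4.02 in 9 PAE libraries. The groups covered the same range, and PF replicate 8 and PAE replicate 8 had no called peak. At chrUn_KL568282v1:572-953 (382 bp, SD 1.06) the values were 1.03, 1.93 and 3.46 in 7 CON, 0.732, 1.54 and 2.63 in 7 PF and 0.679, 0.788 and 1.81 in 3 PAE libraries. Peaks were thus called less often in PAE libraries there, and those called lay within the range of PF libraries except at the lower end.

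The other 4 of the 5 scaffolds with the most regions were chrUn_KL568409v1, chrUn_KL568413v1, chrUn_KL568412v1 and chrUn_KL568434v1, and the first 5 together held 78 regions (17.4%). On chrUn_KL568409v1, 26 regions were spread over 332525 bp, of which 8 to 14 were called per library (median 11), with means of 11 in CON, 11.2 in PF and 11.2 in PAE libraries. On chrUn_KL568413v1, 15 regions lay within 88518 bp and 2 to 9 were called, with means of 6.2, 4.9 and 5.4, respectively. On chrUn_KL568412v1 there were 10 regions within 44731 bp, with 1 to 6 called and means of 3.8, 3.5 and 3.2. On chrUn_KL568434v1, 10 regions within 79275 bp gave 4 to 9 called, with means of 6.1, 7.1 and 7.1. The largest of these differences between group means, CON against PF on chrUn_KL568413v1, was about the size of the SD within those groups (1.03 in CON and 1.37 in PF, n = 10 each), and none was tested.

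Across libraries, the number of scaffold regions called ran from 163 to 264 of 448 (median 213.5). Its lowest, median and highest values were 194, 206 and 264 in CON, 184, 212.5 and 247 in PF and 163, 218 and 245 in PAE libraries. CON replicate 2 stood well above the other CON libraries, and the groups overlapped throughout. Means were 214.8 ± 21.2, 217.1 ± 23.3 and 210.2 ± 23.5, respectively (SD, n = 10 each). PAE differed from CON by −4.60 (2-sided permutation test, p = 0.664) and from PF by −6.90 (p = 0.521), and PF differed from CON by 2.30 (p = 0.827), all smaller than the SD within a group. The adjusted p was 0.886, 0.884 and 0.894 over the 27 tests of library measures. Those tests that joined the labelled sexes took libraries as independent, although littermates share a dam. The difference of PAE from CON turned to 0.867 without CON replicate 2 and to 0.644 without PAE replicate 7. That of PF from CON turned to −1.02 without PF replicate 4 or 8, −0.244 without PF replicate 10 and −0.0111 without CON replicate 7. That of PAE from PF stayed negative but ranged from −10.8 without PAE replicate 10 to −1.66 without PAE replicate 7. It was −10.6 without PF replicate 5, −4.36 without PF replicate 10, −3.99 without PAE replicate 8 and −3.58 without PF replicate 4 or 8.

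By sequencing lane, as the labels give it, PAE and PF could each be compared with CON in 4 lanes, because lane 4 held no PF and lane 7 no PAE library. CON had a single library in each of lanes 5 and 6 and PF a single one in lane 8, so the values given here and below for these are of 1 library and not means. Mean numbers of regions called in CON and PAE libraries were 201.7 and 203.0 in lane 4, 196.0 and 219.5 in lane 5, 205.0 and 217.3 in lane 6 and 245.5 and 201.7 in lane 8. PF libraries averaged 207.5 in lane 5, 202.3 in lane 6, 243.5 in lane 7 and 247.0 in lane 8, and CON libraries 217.0 in lane 7. The sign of a group difference changed between lanes, and with lane fitted the differences were −6.83 for PAE versus CON, 1.26 for PAE versus PF and 11.7 for PF versus CON (permutation test within lanes, smallest p = 0.213).

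The share of a library's autosomal and scaffold peaks that lay on scaffolds was 0.135, 0.154 and 0.186% (lowest, median and highest) in CON, 0.142, 0.167 and 0.176% in PF and 0.125, 0.178 and 0.193% in PAE libraries. PAE libraries held both the lowest and the highest share, and 9 of the 10 lay above the CON median. Means were 0.153 ± 0.0150% in CON, 0.162 ± 0.0115% in PF and 0.170 ± 0.0204% in PAE libraries (SD, n = 10 each). The differences were 0.0164 for PAE versus CON (permutation test, p = 0.0580, adjusted p = 0.578), 0.00742 for PAE versus PF (p = 0.336, adjusted p = 0.756) and 0.00897 for PF versus CON (p = 0.150, adjusted p = 0.578). That for PAE versus PF ranged from 0.00485 without PAE replicate 6 to 0.0124 without PAE replicate 2 (p = 0.0470, adjusted p = 0.381).

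Within lanes, the mean share in CON (1 library in each of lanes 5 and 6) and PAE libraries was 0.166 and 0.183% in lane 4, 0.155 and 0.171% in lane 5, 0.156 and 0.183% in lane 6 and 0.136 and 0.148% in lane 8, higher in PAE in each of the 4, although 2 of these rest on a single CON library. In PF libraries it was 0.169, 0.156, 0.169 and 0.142% in lanes 5, 6, 7 and 8, and in CON libraries 0.151% in lane 7. With lane fitted, PAE versus CON gave 0.0168 (permutation test within lanes, p = 0.0355, adjusted p = 0.202), PF versus CON 0.0107 (p = 0.0494, adjusted p = 0.202) and PAE versus PF 0.0131 (p = 0.0985, adjusted p = 0.202), none past an adjusted p of 0.05. In the 12 libraries that did not go against their label the difference of PAE from CON was 0.0265 (exact permutation test, 6 against 3, p = 0.0476, adjusted p = 0.214), an alternative chosen after seeing the data. The share depends on how many autosomal peaks a library had. Peaks on scaffolds averaged 230.1 ± 24.1 in CON, 233.3 ± 26.5 in PF and 227.5 ± 29.2 in PAE libraries (SD, n = 10 each). The mean number of scaffold peaks was thus not higher in PAE than in CON libraries. What part the autosomal peaks had in the share was not tested.

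The median normalized height over the 45 constant regions was 1.35, 1.73 and 2.23 (lowest, median and highest) in CON, 1.39, 1.61 and 1.90 in PF and 1.40, 1.59 and 2.11 in PAE libraries. Of the 5 highest libraries, 4 were CON and the other was PAE replicate 2, and the groups overlapped. Means were 1.80 ± 0.282, 1.63 ± 0.168 and 1.63 ± 0.200, respectively (SD, n = 10 each). PAE differed from CON by −0.171 (permutation test, p = 0.135, adjusted p = 0.578), PAE from PF by −0.00424 (p = 0.961, adjusted p = 0.961) and PF from CON by −0.167 (p = 0.125, adjusted p = 0.578). Lower heights than in CON were not particular to scaffolds. In a limma fit of constant regions alone, the median log2 difference of PAE from CON was −0.141 over the 45. Over all 11959 constant regions on scaffolds and autosomes it was −0.113. For PF from CON the 2 values were −0.062 and −0.065. The direction of PAE from PF in this median height is not settled, as the difference was 0.0123 with lane fitted and turned positive, up to 0.0259, without any 1 of PAE replicates 1, 4, 6, 8 and 10 and PF replicates 2, 4, 8 and 10, but was −0.0578 without PAE replicate 2.

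In lanes with both groups, the mean of this height in CON and PAE libraries was 1.55 and 1.5 in lane 4, 1.55 and 1.62 in lane 5, 2.01 and 1.53 in lane 6 and 2.05 and 1.81 in lane 8. PF libraries averaged 1.5, 1.60, 1.84 and 1.83 in lanes 5, 6, 7 and 8, and CON libraries 1.89 in lane 7. PAE was thus below CON in 3 of 4 lanes and above it in lane 5, with a single CON library in lanes 5 and 6, and with lane fitted the difference was −0.172 (permutation test within lanes, p = 0.0946, adjusted p = 0.202). In the 12 libraries that did not go against their label it was −0.397 (exact permutation test, 6 against 3, p = 0.0238, adjusted p = 0.214), and there PAE differed from PF by −0.1145 (p = 0.310, adjusted p = 0.464) and PF from CON by −0.282 (3 against 3, where the smallest possible p is 0.1; p = 0.2, adjusted p = 0.464). Within a labelled sex no library measure had an adjusted p below 0.578 (exact permutation tests, 5 against 5, where the smallest possible p is 0.00794).

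Between groups, none of the 448 scaffold regions differed at an FDR of 0.05 in the limma fit with labelled sex and lane, adjusted over all 352474 scaffold and autosomal regions. For PAE versus CON the count of 0 stands beside 0.000284% of all regions, and the smallest adjusted p among scaffold regions was 0.661. An unadjusted p under 0.05 was found for 22 of them (4.91%, against 7.37% of all regions), with 7 higher in PAE (1.56%, against 1.34%) and 15 lower (3.35%, against 6.03%). For PAE versus PF the count of 0 stands beside 0%, with a smallest adjusted p of 0.988. There, 23 had an unadjusted p under 0.05 (5.13%, against 4.46%), with 9 higher (2.01%, against 1.51%) and 14 lower (3.12%, against 2.95%). For PF versus CON the count was again 0 beside 0%, with a smallest adjusted p of 0.773, and 27 had an unadjusted p under 0.05 (6.03%, against 6.46%), with 17 higher in PF (3.79%, against 2.07%) and 10 lower (2.23%, against 4.39%). In each contrast of this fit more of the scaffold regions than of all regions at this p were higher (31.8 against 18.2%, 39.1 against 33.8% and 63.0 against 32.0%), a split that was not tested. It did not hold in every setting. For PAE versus PF, 6 of 21 were higher without the lane term (4550 of 13020 among all regions), 6 of 21 without PAE replicate 5 (6353 of 15451) and 1 of 5 among constant regions (126 of 627), and for PAE versus CON 0 of 5 were higher among constant regions (78 of 1296).

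For PAE versus CON and PAE versus PF, whether most of these regions were higher or lower depends on how libraries were scaled, while for PF versus CON most were higher with each of the 3 scalings. That majority did not hold in other settings, with 7 higher and 9 lower without the lane term, 10 and 10 with a floor of its own for each library, 12 and 12 with q under 0.01 and 1 and 2 among constant regions. All regions at this p were mostly lower in these settings (6258 higher and 15310 lower, 4486 and 19533, 6331 and 14894, and 123 and 575). The majority of higher scaffold regions was also lost without PF replicate 4 (10 and 15), PF replicate 8 (15 and 18), PF replicate 10 (12 and 14), CON replicate 8 (15 and 15) or PAE replicate 4 (14 and 14). All regions were again mostly lower, at 6863 and 16082, 7534 and 12975, 7816 and 12725, 6651 and 20393, and 6830 and 15941 in the same order. With quantile normalization in place of scaling to filtered fragments, 31 regions had an unadjusted p under 0.05 for PAE versus CON (6.92%, all regions 5.72%), 23 of them higher (74.2%, against 43% of all regions at this p) and 8 lower. For PAE versus PF there were 23 (5.13%, all regions 4.54%), 16 higher (69.6%, against 49.9%) and 7 lower, and for PF versus CON 21 (4.69%, all regions 4.96%), 14 higher (66.7%, against 42.7%) and 7 lower. With median ratio scaling the numbers were 30 (6.70%, all regions 6.14%; 17 higher, 13 lower), 25 (5.58%, all regions 4.51%; 14 higher, 11 lower) and 23 (5.13%, all regions 5.36%; 14 higher, 9 lower), with 56.7, 56.0 and 60.9% of them higher against 33.9, 46.2 and 37.0% of all regions at this p. The total for PAE versus CON was thus below that of all regions when scaled to filtered fragments and above it with both other scalings. The median log2 difference of the scaffold regions for PAE versus CON was −0.03 (all regions −0.05), and it was 0.03 with quantile normalization and 0.01 with median ratio scaling. No scaffold region passed an FDR of 0.05 in limma with either scaling.

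In the 12 libraries that did not go against their label, fitted with group alone and so without sex, again 0 scaffold regions passed an FDR of 0.05 in limma. Beside this, 0.021% of all regions passed for PAE versus CON, 0.0105% for PAE versus PF and 0.00709% for PF versus CON. An unadjusted p under 0.05 was found for 19 scaffold regions (all regions 5.44%), 18 (3.04%) and 24 (5.05%), respectively.

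The region with the smallest p for PAE versus CON was chrUn_KL568287v1:2986-3516 (531 bp), called in all 30 libraries. Its lowest, median and highest heights were 1.55, 5.14 and 13.2 in CON, 1.43, 4.78 and 7.97 in PF and 1.02, 1.60 and 5.15 in PAE libraries. Most PAE libraries lay low and most CON and PF libraries high, and the 8 highest libraries were CON or PF. The log2 difference of PAE from CON was −1.22 (limma, standard error 0.35, unadjusted p = 0.00129), which did not pass (adjusted p = 0.661).

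The heights of chrUn_KL568287v1:2986-3516 fell into 2 ranges with no library in between. In 12 libraries (7 PAE, 3 PF and 2 CON) they were 1.02 to 1.92, and in 18 (3 PAE, 7 PF and 8 CON) 4.12 to 13.2. Of the 15 dams, 3 had both animals in the lower range, 6 had both in the upper range and the other 6 had 1 in each. The gap was 1.10 on the log2 scale. Among constant regions with at least 5 libraries on each side, a gap of 1 or more between neighbouring libraries was found in this 1 of 45 scaffold regions (median of the widest gap 0.15), beside 0.0251% of all 11959 constant regions. It was looked for after the values of this region were seen, so it is a description with no test.

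The next for PAE versus CON lay on a common scaffold. At chrUn_KL568282v1:572-953, described above, the log2 difference was −1.32 (limma, standard error 0.43, unadjusted p = 0.00419, adjusted p = 0.661). At chrUn_KL568282v1:10384-11004 (621 bp) the lowest, median and highest heights were 0.430, 1.42 and 2.09 in 9 CON, 0.586, 0.795 and 1.02 in 5 PF and 0.502, 0.679 and 0.981 in 7 PAE libraries. In CON, 7 of the 9 libraries with a peak were higher than all PF and PAE libraries, while CON replicates 7 and 8 were lower than all PF and PAE libraries with a peak and CON replicate 3 had none. The log2 difference was −0.86 for PAE (standard error 0.29, unadjusted p = 0.00504, adjusted p = 0.661) and −0.93 for PF (standard error 0.30, unadjusted p = 0.00386, adjusted p = 0.773). Both contrasts use the same CON libraries.

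For PAE versus PF the smallest p was at chrUn_AABR07024193v1:40-750 (711 bp). Heights there were 0.430, 0.856 and 1.44 (lowest, median and highest) in 9 CON, 0.604, 0.988 and 1.43 in 10 PF and 0.453, 0.576 and 0.953 in 8 PAE libraries. All PF libraries had a peak, mostly higher than those of PAE libraries, and CON libraries covered both ranges. The log2 difference was −0.93 (limma, standard error 0.22, unadjusted p = 0.000208, adjusted p = 0.988).

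At chrUn_KL568409v1:221094-222086 (993 bp) heights were 0.573, 0.725 and 1.65 in 9 CON, 0.544, 0.659 and 1.13 in 9 PF and 0.550, 1.01 and 1.42 in 10 PAE libraries. The ranges of PF and PAE overlapped from 0.550 to 1.13, PAE libraries reached higher, and their medians differed. The log2 difference was 0.72 (limma, standard error 0.21, unadjusted p = 0.00156, adjusted p = 0.988). At chrUn_KL568428v1:12692-13257 (566 bp) a peak was called in 3 CON (0.716 to 1.12), 6 PF (0.801 to 1.13) and 0 PAE libraries, with a log2 difference of −0.77 (standard error 0.23, unadjusted p = 0.00175, adjusted p = 0.988). As all PAE libraries sit at the floor there, their own heights were not measured.

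For PF versus CON the smallest p was at chrUn_KL568351v1:15669-15982 (314 bp), where a peak was called only in PF replicates 4, 8 and 10 of the 30 libraries, at heights of 0.795, 0.569 and 0.659. The fitted log2 difference of 0.27 (limma, standard error 0.08, unadjusted p = 0.00191, adjusted p = 0.773) thus rests on 3 libraries against the floor, and was 0.165 without PF replicate 4. As 3 libraries is also the fewest a scaffold region may be called in, this region was kept only because of its PF libraries, and its p does not allow for that. At chrUn_KL568458v1:41482-42118 (637 bp) a peak was called in 4 CON (0.645 to 0.883), 9 PF (0.637 to 1.14) and 8 PAE libraries (0.738 to 1.02). Called heights were alike in the 3 groups, and the groups differed in how many libraries had a peak. PF was above CON by a log2 difference of 0.71 (standard error 0.22, unadjusted p = 0.00287, adjusted p = 0.773).

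Among the 15 libraries labelled female, limma called 0 scaffold regions for PAE versus CON (all regions 0%), 0 for PAE versus PF (0%) and 0 for PF versus CON (0%). An unadjusted p under 0.05 was found for 40 (all regions 6.87%), 19 (4.17%) and 24 (5.9%), respectively, and the smallest adjusted p was 0.512. Among the 15 labelled male, the counts were 0 (0%), 0 (0.000284%) and 0 (0.000284%), with 15 (4.6%), 13 (3.54%) and 13 (3.57%) at an unadjusted p under 0.05. The difference of the group effects between the labelled sexes passed in limma for 0 (all regions 0%), 0 (0%) and 0 (0%) scaffold regions, with 24 (4.87%), 8 (3.19%) and 21 (4.77%) at an unadjusted p under 0.05. Since 18 of the 30 libraries went against their label, none of these fits can be read as a comparison within or between the sexes.

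The counts among libraries labelled female depended on single libraries. Without PAE replicate 4, 12 scaffold regions passed for PAE versus CON (2.68%, against 2.8% of all regions) and 9 for PF versus CON (2.01%, against 2.63%). Without CON replicate 2 the numbers were 7 (1.56%, against 1.35%) and 6 (1.34%, against 1.25%). Without CON replicate 3 they were 2 (0.446%, against 0.18%) and 2 (0.446%, against 0.142%), and without CON replicate 5 they were 1 (0.223%, against 0.135%) and 1 (0.223%, against 0.103%). Without PF replicate 4, 2 passed for PAE versus PF (0.446%, against 0.082%). These 5 libraries lay in lanes 4 and 8, the lanes in which libraries labelled female of CON met those of another group. Without PAE replicate 4, CON met the other groups only in lane 8 and through CON replicate 2 alone, and without CON replicate 2 only in lane 4 and through PAE replicate 4 alone. With lane fitted, the calls of both then rest on 1 library and cannot show a difference between groups. Their direction turned as well, since at an unadjusted p under 0.05 for PAE versus CON 5 scaffold regions were higher and 37 lower without PAE replicate 4, and 19 higher and 6 lower without CON replicate 2. All regions turned in the same way, with 4078 higher and 28761 lower in the former and 12141 higher and 3631 lower in the latter.

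Lane was examined in the same fit. For a joint test of the lane terms, limma called 0 scaffold regions at an FDR of 0.05 (all regions 0.0321%), while 54 (12.1%) had an unadjusted p under 0.05, against 13.6% of all regions. Scaffold regions thus varied with lane about as other regions did.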

How the data were processed

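meDIP-seq libraries came from 30 animals, grouped by the labels. The authors mapped reads with BWA (rn6), used samtools to drop duplicates, unpaired reads and mapping qualities under 10, and called peaks in each library alone with MACS2 (version 2.1.4 per the file headers) at q under 0.05, with no control. The deposited signal is the pileup at a summit, not scaled for depth, the deposited fold enrichment is the ratio to local background, and the deposited −log10 q-value set a stricter threshold of 0.01. The genome sequence and annotation of rn6 were not used here.

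Peaks were merged as described above. The highest pileup per region was scaled to 1000000 filtered fragments, and values below 0.438 or without a peak were set to that floor. Coverage under the calling threshold is not seen, so a difference from such libraries may be under- or overstated. Log2 heights of 352474 scaffold and autosomal regions entered a limma fit (limma 3.58.1, R 4.3.3; trended prior, group, labelled sex and lane), with Benjamini-Hochberg adjustment over all of them. A trial of the fit on simulated data placed changes only in regions called in most libraries. It therefore does not show how the fit does in regions called in few libraries. The authors' counting of reads in DiffBind and correction of batch effects start from reads not used here, so lane entered as a term. Library measures were compared with 2-sided permutation tests of 100000 resamples, exact with fewer than 10 libraries a group, in Python 3.11.15 with numpy 2.4.6, pandas 2.3.3 and scipy 1.17.1. Local background was (pileup + 1) / fold enrichment − 1.

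Regions named are the 5 of highest mean height, the 5 scaffolds with the most regions, the 3 with the smallest p in each contrast, the 5 with the largest SD of log2 height, and the 5 most unevenly called by chromosome X share. Others are said to be chosen after their values were seen. The scaffold regions and lists were chosen with earlier results of these data known. The dam named in the labels pairs animals of a litter. In log2 heights of scaffold regions, centred within groups, littermates correlated at a median of −0.10 (15 pairs) and other pairs of a group at −0.12 (120 pairs). Alternatives covered lane, labelled sex, dam, floor, pseudocount, scaling, peak threshold, overlap, the minimum of libraries, unassigned scaffolds alone and each library left out.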

Additional observations from a re-analysis of the deposited data

Results flagged for a closer look

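The highest or lowest library of each group was set against its nearest neighbour for the library measures and the named regions called in every library, by Dixon's test. Of 34 groups examined, 6 had a library that stood apart. Some of these 6 are at chrUn_KL568289v1:3871-5072, a region chosen after its values were seen. The count therefore cannot be set against the 1 in 20 or so that chance gives. CON replicate 2 had 264 scaffold regions called, ahead of 229 in the next CON library. PAE replicate 2 had a median height of 2.11 over the constant regions, ahead of 1.74 in the next PAE library. At chrUn_KL568391v1:10411-10938, PAE replicate 1, the PAE library among the 7 with over 2% of peaks on chromosome X, had a height of 56.5 and the next PAE library 40.8. At chrUn_KL568337v1:27623-28403, PAE replicate 2 had 10.0 and the next PAE library 6.95. At chrUn_KL568289v1:3871-5072 (1202 bp, chosen after its values were seen), PF replicate 4 had 9.15 against 4.47 in the next PF library, and PAE replicate 2 had 8.44 against 5.44 in the next PAE library. CON libraries there ran from 2.1 to 9.35.

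Outside the regions compared here, PF replicate 8 had 8 peaks on scaffolds named for chromosome X, more than the 5 of the highest CON library. PF replicate 7 and PAE replicate 1 had 6 each. These libraries are all among the 7 with over 2% of peaks on chromosome X, which had 4 to 8 such peaks. What lies behind these values was not tested.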

How the results depend on the processing

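No scaffold region passed an FDR of 0.05 in any of the 14 other settings of the fit with both labelled sexes, or in the 10 of each other fit. Unadjusted p under 0.05 counts ran from 19 to 31 for PAE versus CON, 18 to 29 for PAE versus PF and 16 to 31 for PF versus CON, and were 5, 5 and 3 of 45 among constant regions. Among all 11959 constant regions on scaffolds and autosomes together they were 1296, 627 and 698. In the settings with 19 and 31 scaffold regions for PAE versus CON, 19191 and 20178 of all 352474 regions had such a p. For PAE versus PF, 18 and 29 stand beside 10712 and 17268 of 352474. For PF versus CON, 16 stands beside 21568 of 352474. The 31 there were of 523 scaffold regions called in at least 2 libraries, beside 25508 of 432626. With dam as a random effect (replicate block), 0, 0 and 0 scaffold regions passed, with 23, 23 and 28 at an unadjusted p under 0.05. Of all 352474 regions, 1, 0 and 0 passed, with 27021, 16416 and 23642 at an unadjusted p under 0.05. The block changed no call, and its consensus correlation was −0.0200 over 20000 regions. With chromosome X share in place of labelled sex, chosen after seeing the data, 0 scaffold regions passed in each contrast, beside 1, 0 and 0 of all regions.

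Leaving out 1 library each in turn gave 0 to 12, 0 to 2 and 0 to 9 regions among libraries labelled female, in the same order of contrasts, and 0 in every other fit. Differences in regions called ran from −8.47 to 0.867 (PAE versus CON), −10.8 to −1.66 (PAE versus PF) and −1.02 to 7.77 (PF versus CON), in the share on scaffolds from 0.00485 to 0.0124 (PAE versus PF), and in median height of constant regions from −0.0578 to 0.0259 (PAE versus PF). At chrUn_KL568391v1:10411-10938 the log2 difference of PAE from PF ran from −0.067 to 0.107.

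The cause of the following reversals was not tested. At chrUn_KL568391v1:10411-10938, PAE versus PF was −0.15 without the lane term and −0.15 in the 12 libraries that did not go against their label, where PF versus CON was 0.13. With lane fitted, PAE versus PF was 1.26 for regions called and 0.0123 for median height of constant regions. With q under 0.01, PF versus CON was −0.8 for regions called. Median peak length lost its call among regions called in all 30 libraries, at 5.22 bp. The other 180 library and count results and 156 log2 differences of single regions kept their direction and side of the threshold. Heights below the calling level were not measured, so absence of a peak is not absence of DNAm.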
